A study of Mus musculus with 28 samples.

Results

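The iAtoh1 line carries a single inducible transcription factor, Atoh1, and its 4 libraries, taken by the labelled line and treatment, were compared as 2 libraries with doxycycline (Dox) against 2 untreated ones, out of 28 libraries in the series. The line was made from A2loxCre mouse embryonic stem cells by placing Atoh1 with a 3xFlag tag, followed by a 2A peptide and nuclear mVenus, under a Dox-responsive promoter. Embryoid bodies (EBs), which are floating aggregates in which stem cells form mixed early tissues, received 2 µg/ml Dox at day 4 for 48 h, and mVenus+ cells were sorted at day 6. The untreated EBs of the same line were taken at day 6 without sorting, so that Dox and sorting cannot be told apart within the line. The 2 replicates are different clones of the line, and the p-values rest on the spread between replicates pooled over all 7 lines, these clones among them. The other lines carry Gfi1 (iGfi1), Pou4f3 (iPou4f3), a pair of the factors (iG+A, iP+A, iG+P) or Gfi1, Pou4f3 and Atoh1 together (iGPA), on the same parental cells and with the same Dox, sorting and day, and each has its own 2 untreated libraries. The study asked how Atoh1, Gfi1 and Pou4f3 act alone and together when they direct stem cells towards sensory hair cells, the mechanosensory cells of the inner ear.

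Atoh1 is a basic helix-loop-helix (bHLH) protein that pairs with E proteins, binds DNA at E-boxes and starts differentiation in several unrelated cell types. It is required for inner ear hair cells, cerebellar granule neurons, dorsal spinal interneurons, Merkel cells of the skin and the secretory cells of the gut. Factors of this kind are called proneural, since in progenitors they raise Notch ligands, which hold neighbouring cells back, together with later bHLH factors that carry a cell towards a neuron.

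Values are normalized counts per library, and a log2 fold change is the difference in the mean of log2(normalized count + 1), which understates the change of low genes. Past the threshold means a limma adjusted p below 0.05 together with a rise or fall of 1.5 or more on this log2 scale. Estimated depth was 39.8 and 48.0 M reads in the untreated and 42.0 and 41.3 M in the Dox libraries of iAtoh1. The libraries of a group correlated across genes at r = 0.984 without and 0.987 with Dox, although 1376 and 1075 genes were more than 2-fold apart between clones. Of the cell type markers checked, blood markers summed to 198366 and 178972 without and 19360 and 15285 with Dox, neuron markers to 1247 and 691 against 2786 and 1649, and hair cell markers to 5788 and 4292 against 6939 and 7048. Surface epithelium markers summed to 32011 and 25863 without and 8013 and 7400 with Dox, and fibroblast markers to 50034 and 78221 against 26700 and 39288. Neural progenitor markers summed to 4262 and 2654 against 2607 and 1574.5, although 2 of 6 rose past the threshold and none fell. Of the 8 neuron markers 3 rose past it and none fell, where 2.89% of all tested genes rose. In a mixed EB, fewer cells of a type and less RNA per cell cannot be told apart.

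Atoh1 itself was read at 76.1 and 39.2 in the untreated and at 18996 and 21242 in the Dox libraries. Its log2 fold change was 8.50 ± 0.33 (SE, n = 2 a group, limma adjusted p = 1.76e-11), which was the largest in the comparison. Both untreated libraries were low and both Dox libraries high, as the labels require. Reads of the transgene and of the gene on chromosome 6 (NCBIM37, 64679140 to 64681227) cannot be separated in these values. The log2 fold change of Atoh1 in iAtoh1 exceeded that in iGfi1 by 6.45 and that in iPou4f3 by 7.72. Since both are less than 8.50, the estimate for Atoh1 was also above 0 in these lines, which carry no Atoh1 transgene.

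With Dox, 486 of 16837 genes were higher (2.89%) and 424 were lower (2.52%). More than 1 in 2 of the higher genes started from a low level, since 252 of them had an untreated mean under 50 and 108 a mean under 10. Their median level went from 44.2 to 281. The lower genes started higher, with medians of 233 without and 49.5 with Dox, and 98 of them against 19 of the higher genes had an untreated mean of at least 1000. Changes upward were also larger, with 122 genes at a log2 fold change of 3 or more against 34 at -3 or less. Among the higher genes 465 were protein coding and 16 were long noncoding RNAs, and among the lower ones 415 and 6. The median log2 fold change of all genes tested was -0.01. At an unadjusted p under 0.05 in the same fit, 17.1% of all tested genes were higher and 18.4% lower, against which the counts at that p below are to be read. Both Dox libraries lay above both untreated ones for all 486 higher genes and below them for all 424 lower genes, an arrangement that 29.4% and 30.6% of all tested genes had.

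**Figure D1:**
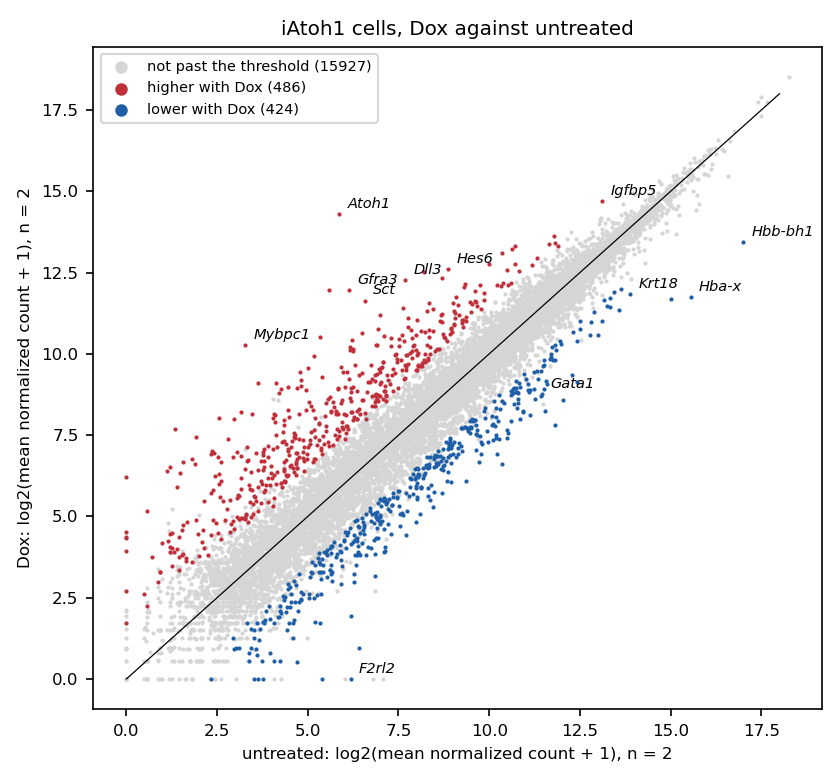
Mean normalized count of each tested gene in the 2 untreated (horizontal axis) and the 2 Dox libraries (vertical axis) of iAtoh1, both as log2(mean + 1), with the 486 higher genes in red, the 424 lower genes in blue and the line of equal levels in black. Many red points rise from the low end of the horizontal axis, while the embryonic globins Hbb-bh1 and Hba-x stand below the line at its high end.

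Several neuronal bHLH factors rose, while Neurog2, a proneural gene of the same family, stayed under 10 normalized counts in all 4 libraries. Of 20 bHLH factors of this kind that were listed, 11 reached the minimum level, of which 6 rose and none fell, with a median log2 fold change of 2.24. Members that did not pass included Ascl2 at -0.72 and Tcf21 at -1.0. Nhlh1, which neurons express as they leave division, was at 3.91 and 9.79 without and at 264 and 249 with Dox (log2 fold change 5.14 ± 0.51, limma adjusted p = 1.61e-06). Its relative Nhlh2 went from 5.86 and 2.45 to 149 and 110 (4.73 ± 0.64, limma adjusted p = 3.88e-05). In both genes the Dox libraries were close to each other and far above the untreated ones, which were low and more than 2-fold apart. Bhlhe22, a repressor of dorsal spinal and retinal neurons, went from 42.0 and 10.6 to 188 and 144 (2.89 ± 0.61, limma adjusted p = 0.00225), and Neurod1, a differentiation factor of granule and inner ear neurons, from 12.7 and 7.34 to 54.8 and 54.9 (2.39 ± 0.61, limma adjusted p = 0.00876). Without untreated replicate 2 the list had 4 members higher, and the adjusted p was 0.0518 for Bhlhe22 and 0.0757 for Neurod1.

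Notch ligands and the Fringe enzymes that modify Notch receptors rose together with several Hes and Id genes. Of 17 Notch ligands, receptors and modifiers 7 rose and 1 fell, with a median log2 fold change of 0.97. Dll3, a ligand that acts inside the cell that makes it, was at 315 and 93.8 without and at 5096 and 4778 with Dox (4.83 ± 0.68, limma adjusted p = 5.78e-05; NCBIM37 chromosome 7, 29076673 to 29087257). Dll1, the ligand that proneural cells present to their neighbours, went from 187 and 87.3 to 2004 and 970 (3.44 ± 0.57, limma adjusted p = 0.000294; chromosome 17, 15504318 to 15513836). The lower Dox library of Dll1 still held more than 5 times the higher untreated one. Lfng went from 133 and 120 to 2283 and 2450 (4.22 ± 0.38, limma adjusted p = 4.57e-07; chromosome 5, 141083295 to 141091497), and Mfng from 111 and 121 to 1329 and 1166 (3.41 ± 0.27, limma adjusted p = 9.56e-08; chromosome 15, 78586312 to 78603905). These 2 Fringe genes differed little between clones in either group. Among receptors, Notch1, chosen after its values were seen, rose from 1721 and 1871 to 6542 and 5390 (1.73 ± 0.27, limma adjusted p = 0.00018), whereas Notch2 had 3507 and 3382 against 3584 and 3776 (0.10) and Notch3 5866 and 5738 against 8107 and 8234 (0.49, limma adjusted p = 0.102). Dlk1, a noncanonical ligand, fell from 9140 and 16397 to 3419 and 4804 (-1.59 ± 0.34, limma adjusted p = 0.00274), and was at -1.35 without Dox replicate 1 and at -1.17 without untreated replicate 2.

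Of 14 Hes, Hey, Helt and Id genes tested, whose products mostly repress or trap bHLH factors, 7 rose and none fell, with a median log2 fold change of 1.56. At an unadjusted p under 0.05 the limma fit had 1 of them lower. Hes6, which unlike most of its family favours neuronal differentiation, was at 499 and 433 without and 5809 and 6639 with Dox (3.74 ± 0.20, limma adjusted p = 8.04e-10; chromosome 1, 93308060 to 93310615). Heyl went from 15.6 and 20.4 to 495 and 477 (4.69 ± 0.49, limma adjusted p = 2.71e-06; chromosome 4, 122910799 to 122927118). The spread between clones was small beside the difference in both. Hes5, the usual readout of Notch signalling in neural progenitors, went from 5.85 and 4.09 to 61 and 33.2 (2.96 ± 0.89, limma adjusted p = 0.0217), and its adjusted p was 0.133 without Dox replicate 1, 0.0643 without untreated replicate 1 and 0.102 without untreated replicate 2. Hes1 was at 1899 and 1435 against 3391 and 2054 (0.68, limma adjusted p = 0.183), which does not pass. The inhibitors Id1 and Id2, which bind E proteins, rose from levels that were already high, Id1 from 3443 and 3035 to 10228 and 11038 (1.72 ± 0.16, limma adjusted p = 1.06e-06) and Id2 from 3485 and 3634 to 13001 and 12151 (1.82 ± 0.18, limma adjusted p = 1.66e-06). Id3, at 4790 and 4251 against 12064 and 11722, passed the p but not the fold threshold (1.40 ± 0.19, limma adjusted p = 3.5e-05).

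**Figure D2:**
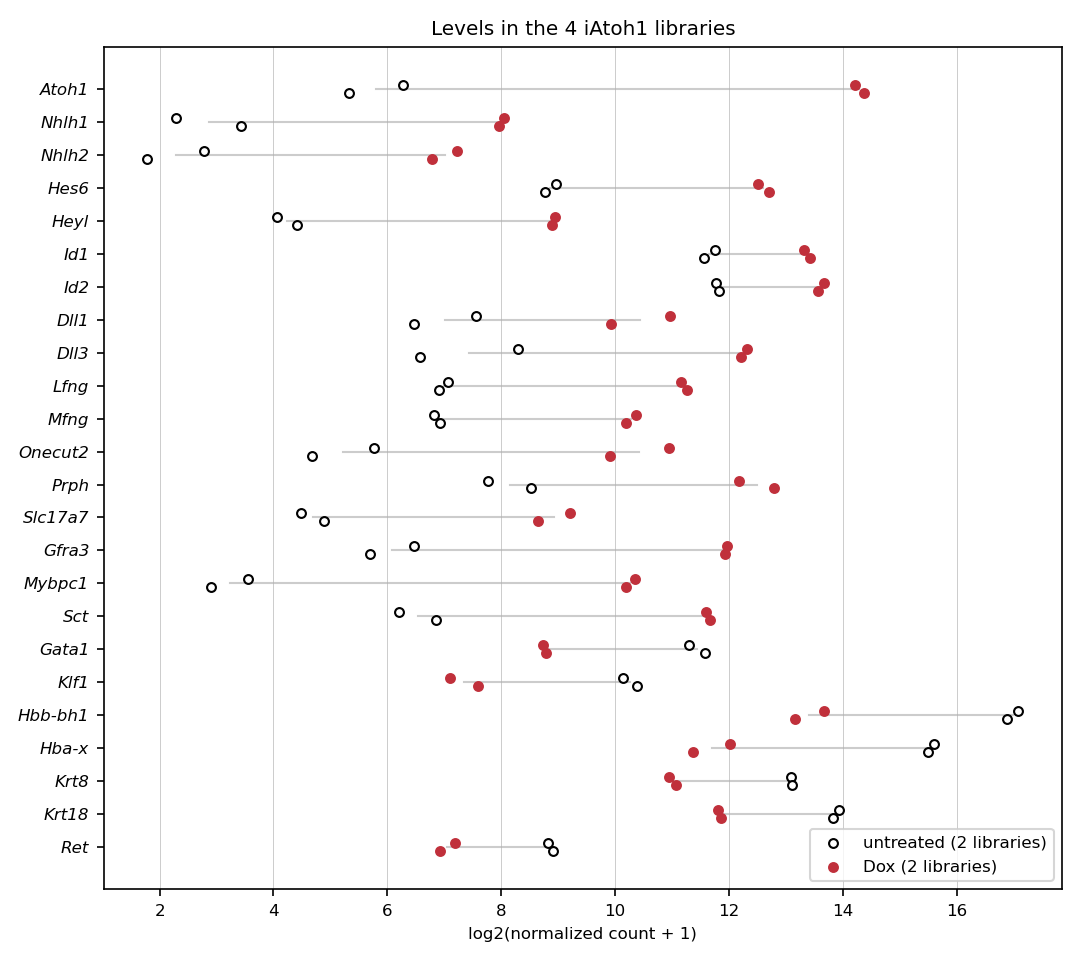
Normalized counts of 24 genes in each of the 4 iAtoh1 libraries, as log2(normalized count + 1) on the horizontal axis, with untreated libraries as open circles, Dox libraries as red circles and a grey line between the group means. The groups do not overlap for any gene shown, from Atoh1 and the Notch pathway at the top to the blood, keratin and Ret rows at the bottom, which lie lower with Dox.

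Windows around the annotated starts of 5 of the higher genes are shown because each holds 1 or more of a pair of E-box words known for Atoh1 and its relatives, and a Notch ligand, a Fringe enzyme, a neuronal bHLH factor, the gene with the largest rise after Atoh1 and a gut hormone are among them. They run from 250 bases before to 50 after the start (RefSeq, build GRCm38.p6), 5′ to 3′ on the gene's strand, and capitals mark CAGCTG and CAGATG on either strand (CATCTG is CAGATG read on the other). Genes were chosen after their values and windows were seen.
Dll3, chr7:28301736-28302035, minus strand: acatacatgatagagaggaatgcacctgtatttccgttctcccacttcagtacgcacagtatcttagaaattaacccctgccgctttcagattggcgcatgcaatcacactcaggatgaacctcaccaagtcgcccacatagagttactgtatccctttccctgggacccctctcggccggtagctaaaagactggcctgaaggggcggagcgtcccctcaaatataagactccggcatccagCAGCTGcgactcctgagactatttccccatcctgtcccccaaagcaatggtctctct
Lfng, chr5:140607091-140607390, plus strand: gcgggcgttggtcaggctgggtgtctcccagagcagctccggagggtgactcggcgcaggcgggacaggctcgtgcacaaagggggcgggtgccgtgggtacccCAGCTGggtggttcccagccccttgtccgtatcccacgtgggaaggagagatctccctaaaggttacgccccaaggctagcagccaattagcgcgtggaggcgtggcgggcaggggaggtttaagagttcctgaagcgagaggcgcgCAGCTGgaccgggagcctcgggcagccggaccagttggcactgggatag
Mybpc1, chr10:88605103-88605402, minus strand: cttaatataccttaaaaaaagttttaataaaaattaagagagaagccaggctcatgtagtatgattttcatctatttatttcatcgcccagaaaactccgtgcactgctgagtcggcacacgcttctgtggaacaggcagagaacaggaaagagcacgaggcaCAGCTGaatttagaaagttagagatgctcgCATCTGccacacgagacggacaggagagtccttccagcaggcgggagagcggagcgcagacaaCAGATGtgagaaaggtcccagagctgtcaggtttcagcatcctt
Nhlh1, chr1:172057547-172057846, minus strand: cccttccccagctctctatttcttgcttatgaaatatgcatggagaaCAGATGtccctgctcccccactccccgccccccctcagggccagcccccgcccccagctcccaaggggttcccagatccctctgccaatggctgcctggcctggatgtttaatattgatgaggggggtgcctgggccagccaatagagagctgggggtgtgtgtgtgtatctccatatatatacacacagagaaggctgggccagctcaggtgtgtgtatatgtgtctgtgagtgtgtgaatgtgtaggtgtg
Sct, chr7:141279084-141279383, minus strand: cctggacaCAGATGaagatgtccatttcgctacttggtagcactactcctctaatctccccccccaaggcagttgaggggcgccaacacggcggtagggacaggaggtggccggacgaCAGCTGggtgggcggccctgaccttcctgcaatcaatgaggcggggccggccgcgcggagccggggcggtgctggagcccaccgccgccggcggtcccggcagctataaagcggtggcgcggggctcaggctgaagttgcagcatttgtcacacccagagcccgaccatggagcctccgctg
Counted from 0 at the start, the Lfng window has CAGCTG at positions -146 and 1, and the Dll3 window has it at -7. The Mybpc1 window holds matches at -87, -57 and 6, the Sct window a CAGATG at -242 and a CAGCTG at -132, and the Nhlh1 window a CAGATG at -203. Both words are also matches of the general E-box CANNTG, which 66.0% of 16562 windows over all tested genes hold, whereas CAGCTG is in 16.5% and CAGATG in 12.6% of them. Only 333 of the 486 higher genes (68.5%) had a window, against 78.0% of all tested genes. A comparison of the higher genes with the rest would be incomplete and was not tested. AtEAM, the longer E-box motif that the paper matched most closely to its Atoh1 peaks, has 1 match in the Nhlh1 window. It has 0 in the Dll3, Lfng, Mybpc1 and Sct windows, and 1.51% of all windows hold it. A match is a description of letters and no measure of binding.

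Genes known to follow Atoh1 in the brain, ear or gut moved in part. Of 33 tested, 8 rose and 1 fell, with a median log2 fold change of 0.66, and with the replicate number as a block 10 rose and 2 fell. In iPou4f3, which carries no Atoh1 transgene, 7 of the list rose and none fell (median 0.57, backgrounds 1.47% and 0.606%). In iGfi1 2 rose and none fell (median -0.03). The effect in iAtoh1 was higher than in iPou4f3 for 2 members and lower for 2 (median -0.07). Against iGfi1 alone it was higher for 9 and lower for 2 (median 0.79). Srrm4, a splicing factor of neurons and hair cells, went from 43.9 and 10.2 to 621 and 401 (4.48 ± 0.85, limma adjusted p = 0.000972), and Rbm24, an RNA-binding protein of hair cells and muscle, from 471 and 353 to 4463 and 5854 (3.64 ± 0.37, limma adjusted p = 1.69e-06). Insm1, a zinc finger factor of neurons, endocrine cells and outer hair cells, went from 26.4 and 12.2 to 279 and 171 (3.53 ± 0.49, limma adjusted p = 4.92e-05). In these 3 genes every Dox library held at least 6 times the highest untreated one. The endogenous Pou4f3 gene, whose product acts after Atoh1 in hair cells and Merkel cells, rose from 20.5 and 13.1 to 101 and 62.6 (2.21 ± 0.46, limma adjusted p = 0.00218). Gfi1, the other hair cell factor of the study, chosen after its values were seen, was at 55.2 and 68.6 without and at 92.0 and 49.7 with Dox (0.14, limma adjusted p = 0.743), and its groups overlapped. Gfi1b, the blood relative of Gfi1, was the member that fell.

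Factors of postmitotic neurons rose in larger number than those of neural progenitors, a difference that was not itself tested. Of 24 SoxC, Myt and related factors 7 rose and none fell (14 higher and 0 lower at an unadjusted p under 0.05 in the limma fit), with a median log2 fold change of 0.79, whereas of 25 SoxB and other progenitor factors 2 rose and 1 fell, with a median of 0.12, and 1 rose without untreated replicate 2, where Pax3 lost its call (adjusted p 0.0546), and 2 fell with the replicate number as a block. Onecut2, a factor of motor, sensory and retinal neurons, went from 53.8 and 24.5 to 1965 and 962 (5.2 ± 0.37, limma adjusted p = 2.58e-08), and Ebf2 from 25.4 and 13.1 to 352 and 148 (3.57 ± 0.66, limma adjusted p = 0.000755). From among the largest rises, outside these lists, Lbx1, which marks dorsal spinal interneurons, was at 3.9 in one untreated library and listed at 0 in the other, against 94.8 and 109 (5.54 ± 0.67, limma adjusted p = 1.32e-05; chromosome 19, 45307178 to 45310301), and Tlx2, a homeobox factor of enteric and other neural crest cells, went from 4.88 and 4.90 to 265 and 250 (5.46 ± 0.50, limma adjusted p = 5.68e-07; chromosome 6, 83018311 to 83020287). These genes belong to different kinds of neuron, and all were low in both untreated clones. Sox4 rose less, from 3908 and 3806 to 7628 and 9886 (1.17, limma adjusted p = 6.78e-05, under the fold threshold), and Sox2, a factor of pluripotent and neural progenitor cells, was at 3119 and 2035 without and 864 and 494 with Dox (-1.94 ± 0.72, limma adjusted p = 0.0597, and 0.00447 with the replicate number as a block). Lmx1a, a factor of the roof plate and inner ear, fell from 238 and 400 to 45.7 and 51.1 (-2.65 ± 0.35, limma adjusted p = 3.21e-05; chromosome 1, 169619370 to 169778872).

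Some genes of the neuronal cytoskeleton, of axon guidance and of synaptic vesicles rose. Of 35 cytoskeleton genes 8 rose and 2 fell (13 higher and 7 lower at an unadjusted p under 0.05). Prph, the intermediate filament of peripheral neurons, went from 218 and 367 to 4619 and 7123 (4.34 ± 0.43, limma adjusted p = 1.6e-06; chromosome 15, 98885605 to 98889409), and Dpysl4, a growth cone protein, from 83.0 and 50.2 to 768 and 631 (3.41 ± 0.69, limma adjusted p = 0.00172). Both fallen members are neurofilament-type proteins, Nefh at -2.03 and Ina at -2.05, and Ina lost its call with each single library left out (adjusted p 0.061 to 0.267) and with the replicate number as a block (0.0534), as did Nefh without untreated replicate 1 (0.053). Septin3, a neuronal septin, rose from 611 and 482 to 3565 and 3249 (2.65 ± 0.17, limma adjusted p = 1.05e-08). Of 44 axon guidance genes 7 rose and none fell (19 higher and 6 lower at an unadjusted p under 0.05), with 1 lower with the block or without untreated replicate 1 and 2 lower without untreated replicate 2, and among them Slit1 went from 345 and 120 to 1758 and 1130 (2.79 ± 0.42, limma adjusted p = 0.000128) and the ephrin receptor Epha8 from 25.4 and 14.7 to 149 and 149 (2.88 ± 0.30, limma adjusted p = 2.53e-06). Of 22 neuronal RNA-binding proteins 4 rose, and Rbfox3, the antigen known as NeuN, went from 92.6 and 137 to 444 and 851 (2.44 ± 0.45, limma adjusted p = 0.000803). Of 40 synaptic vesicle genes 3 rose and 2 fell (14 higher and 7 lower at an unadjusted p under 0.05), and single libraries moved the count of higher ones between 1 (without untreated replicate 2) and 5 (without untreated replicate 1 or without Dox replicate 2). Of 43 neuronal adhesion genes 3 rose and none fell (11 higher and 4 lower at an unadjusted p under 0.05), with 8 higher without untreated replicate 1 and 6 without Dox replicate 2, and with 1 lower with the block or without Dox replicate 2 and 2 lower without untreated replicate 2.

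Some genes of transmitter use and excitability rose, and most members of these lists did not. At an unadjusted p under 0.05 in the limma fit, 3 of 19 transmitter genes were higher and 2 lower (median log2 fold change 0.03). Of 22 neuropeptide genes 3 were higher and 2 lower (median -0.01). These shares are below the 17.1% and 18.4% of all genes. Slc17a7, the vesicular glutamate transporter VGLUT1 of cortical and granule neurons, went from 21.3 and 28.7 to 588 and 402 (4.24 ± 0.38, limma adjusted p = 4.09e-07; chromosome 7, 52419291 to 52431508). Slc18a1, the monoamine transporter of chromaffin cells, went from 46.2 and 18.9 to 215 and 111 (2.34 ± 0.47, limma adjusted p = 0.00167), and these 2 were the members that rose among 19 transmitter genes. Ache, the acetylcholinesterase of synapses and red cells, was the 1 that fell, from 1037 and 1311 to 285 and 250 (-2.12 ± 0.32, limma adjusted p = 0.000132). Of 22 neuropeptide genes tested, Cck and Gal rose and Vip fell (-1.67 ± 0.55, limma adjusted p = 0.0341, lost without untreated replicate 1, Dox replicate 1 or Dox replicate 2, and 2 fell with the block or without untreated replicate 2), Cck from 9.77 and 4.89 to 101 and 150 (3.96 ± 0.66, limma adjusted p = 0.000321). Potassium channels had 5 of 38 higher and none lower (8 and 4 at an unadjusted p under 0.05, where all genes had 17.1% and 18.4%), led by Kcnc4, a fast delayed rectifier, from 46.1 and 23.8 to 739 and 1215 (4.80 ± 0.52, limma adjusted p = 3.37e-06). Ionotropic receptors had 5 of 35 higher and none lower (13 and 2 at an unadjusted p under 0.05), and 3 higher without Dox replicate 1. Htr3a, a serotonin-gated channel, went from 4.89 in both untreated libraries to 96.9 and 58.6 (3.70 ± 0.55, limma adjusted p = 0.000109), and Gria2, an AMPA receptor subunit, from 112 and 127 to 538 and 794 (2.45 ± 0.30, limma adjusted p = 1.41e-05). Of 29 sodium and calcium channels 2 rose and none fell (5 higher and 3 lower at an unadjusted p under 0.05), and 1 rose without untreated replicate 1 or without Dox replicate 1.

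Receptors for neurotrophins and GDNF family ligands split in direction. Of 15 tested genes 5 rose and 2 fell, and 3 rose without untreated replicate 2. Gfra3, the co-receptor for artemin on sensory and sympathetic neurons, was at 88.0 and 50.6 without and at 3999 and 3919 with Dox (5.87 ± 0.41, limma adjusted p = 1.96e-08). Gfra2, the co-receptor for neurturin, went from 349 and 301 to 1876 and 1532 (2.38 ± 0.32, limma adjusted p = 3.58e-05). Both receptors were well separated between the groups. Ret, the signalling partner that Gfra receptors share, moved the other way, from 453 and 483 to 145 and 120 (-1.81 ± 0.31, limma adjusted p = 0.000427; chromosome 6, 118101766 to 118147762), and Artn, the ligand of Gfra3, fell from 138 and 189 to 53.4 and 41.6 (-1.76 ± 0.34, limma adjusted p = 0.00124).

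Lists of the cell types that need Atoh1 in the animal moved unevenly. Of 42 hair bundle and ribbon synapse genes tested, none passed the threshold in either direction with limma (4 higher and 4 lower at an unadjusted p under 0.05, smaller shares than the 17.1% and 18.4% of all genes), and their median log2 fold change was -0.05. Of the 8 hair cell markers, 4 were under 10 normalized counts in both Dox libraries, and Myo7a, a motor of the hair bundle, was at 1903 and 1946 without and at 1814 and 2149 with Dox (0.04). Myo6, another motor of these cells, was at 3126 and 1941 against 4469 and 4494 (0.86 ± 0.20, limma adjusted p = 0.00382, under the fold threshold). Across the other settings at most 2 hair bundle genes were higher and 3 lower. Of 17 intestinal secretory genes 4 rose and none fell (5 higher and 1 lower at an unadjusted p under 0.05, and 2 fell without untreated replicate 2), while the list's median was -0.11. Sct, the hormone secretin of enteroendocrine cells, went from 72.8 and 115 to 3112 and 3256 (5.10 ± 0.40, limma adjusted p = 9.56e-08; chromosome 7, 148464230 to 148465032), and Fcgbp, a goblet cell mucus protein, from 132 and 46.0 to 708 and 643 (3.10 ± 0.57, limma adjusted p = 0.00075). Defa24, a Paneth cell defensin with near-identical relatives that may share its reads, had 34.7 and 9.55 with Dox and was listed at 0 without it in both libraries. Tff3 was at 2.93 and 0.82 against 35.6 and 10.4 (2.94 ± 0.86, limma adjusted p = 0.0194), with adjusted p of 0.184 without Dox replicate 1 and 0.136 without untreated replicate 2. Of 15 Merkel cell genes 3 rose, among them Pou4f3 and Cck, and 3 fell, among them Krt8 and Krt18.

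**Figure D3:**
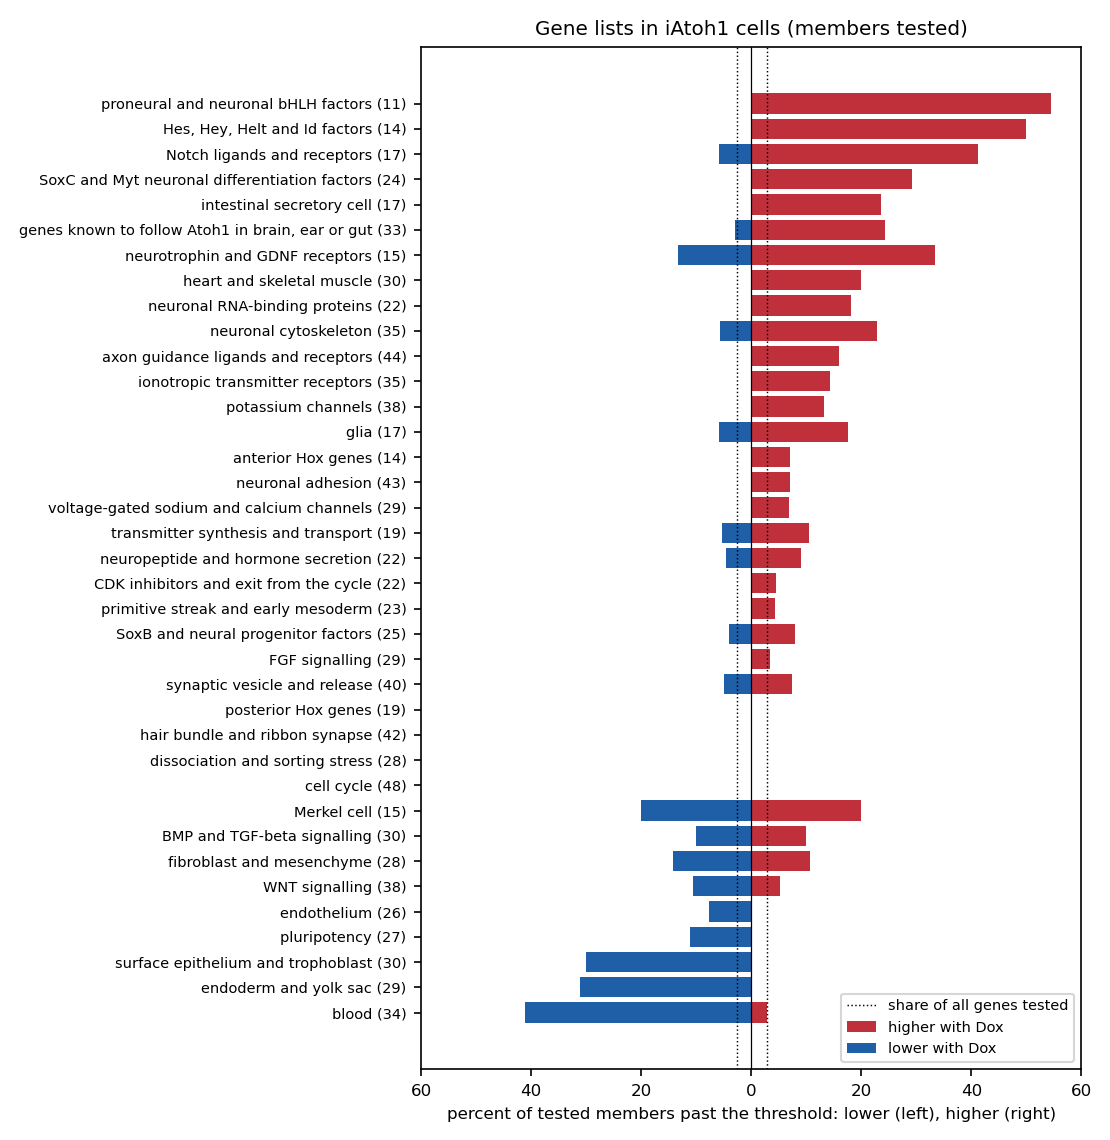
Percent of the tested members of 37 gene lists that were past the threshold in iAtoh1, lower to the left in blue and higher to the right in red, with the number tested in brackets and dotted lines at the shares of all tested genes (2.89% higher, 2.52% lower). Lists at the top are mostly the bHLH, Hes and Notch lists (6 of 11, 7 of 14 and 7 of 17 higher), and the blood list (14 of 34 lower) is at the bottom.

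The genes with the largest rises after Atoh1 were not all neuronal. Mybpc1, a myosin-binding protein of slow skeletal muscle that is also made in some neurons, went from 10.8 and 6.52 to 1309 and 1165 (7.04 ± 0.59, limma adjusted p = 1.94e-07). Pla2g2f, a secreted phospholipase, went from 9.77 and 13.1 to 433 and 665 (log2 fold change 5.45), and Tbata, a thymus and testis protein, from 1.83 and 0.51 to 78.8 and 88.7 (5.36 ± 0.58, limma adjusted p = 3.56e-06). Gm14391, a zinc finger gene with many near-identical neighbours, had 66.7 and 78.5 with Dox and was listed at 0 in each untreated library, and its adjusted p of 0.0179 became 0.0696 to 0.0807 with single libraries left out. Some genes that rose were already well expressed without Dox. Igfbp5, an insulin-like growth factor binding protein, went from 8225 and 9514 to 25440 and 27896 (1.59 ± 0.31, limma adjusted p = 0.00124, and 1.49 without untreated replicate 1), and Qsox1, a secreted enzyme that forms disulfide bonds, from 1210 and 1420 to 8892 and 8708 (2.75 ± 0.13, limma adjusted p = 1.42e-10; chromosome 1, 157625285 to 157660013). Levels in normalized counts also depend on transcript length.

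Some genes of striated muscle and of collagen VI rose, and others of the same lists did not. Of 30 heart and skeletal muscle genes 6 rose and none fell (7 higher and 1 lower at an unadjusted p under 0.05, and 1 fell with the replicate number as a block or without Dox replicate 1), and the median log2 fold change was 0.38. Ttn, the giant sarcomere protein titin, went from 247 and 140 to 1273 and 1782 (3.01 ± 0.69, limma adjusted p = 0.004), and Tbx5, a factor of heart and forelimb, from 163 and 317 to 884 and 1591 (2.38 ± 0.49, limma adjusted p = 0.002). The heart muscle genes Tnnt2 (0.08), Tnni1 (0.10), Myh6 (-0.53) and Nkx2-5 (0.74) did not pass, and Actc1, at 2.20, lost its call in 3 of the 4 fits that left out a library (adjusted p 0.0651 to 0.155, kept without Dox replicate 1). Myod1, the myogenic bHLH factor, was among the 6 that rose, but it was listed at 0 without Dox and stayed at 6.39 and 4.74 with it. Its call was lost with a pseudocount of 5. Among fibroblast genes Col6a2 rose from 243 and 573 to 1721 and 3012 (2.60 ± 0.41, limma adjusted p = 0.000174) and the proteoglycan Bgn from 238 and 413 to 1357 and 1562 (2.21). Col6a1, at 1.87, was at 1.35 without untreated replicate 1. In the same list of 28 genes Col1a2, Col3a1, Col5a2 and Lum fell, at -1.60, -2.08, -1.90 and -3.0, but each lost its call without at least 2 of the single libraries, and the count of 4 lower genes was 1 or 2 with any library left out. Of 17 glial genes Sox10, the neural crest and glial factor, rose from 12.7 and 5.71 to 87.8 and 124 (3.46 ± 0.63, limma adjusted p = 0.000648) and Fabp7 from 32.2 and 19.6 to 246 and 323 (3.43 ± 0.53, limma adjusted p = 0.000137), while the glutamate transporter Slc1a3 fell from 1954 and 2352 to 471 and 479 (-2.17).

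The blood list had more lower genes than any other list. Of 34 tested, 14 fell and 1 rose, with a median log2 fold change of -1.36, and the members summed to 230407 and 209799 normalized counts without and to 30244 and 27130 with Dox. With single libraries left out 13 to 17 fell. Hbb-bh1, the embryonic beta-like globin, was at 139296 and 121551 without and at 12971 and 9200 with Dox (-3.57 ± 0.49, limma adjusted p = 4.94e-05; chromosome 7, 110990150 to 110991678), and Hba-x, the embryonic alpha-like globin, went from 49996 and 46228 to 4162 and 2656 (-3.85 ± 0.52, limma adjusted p = 4e-05; chromosome 11, 32176400 to 32178116). The globins are similar in sequence, so that their reads may be shared, but all those named lay far below in both Dox libraries. Gata1, the master factor of red cells, fell from 2524 and 3081 to 424 and 442 (-2.69 ± 0.29, limma adjusted p = 3.17e-06; chromosome X, 7536386 to 7555197) and Klf1, its partner at globin genes, from 1128 and 1338 to 137 and 191 (-2.92 ± 0.38, limma adjusted p = 3.08e-05; chromosome 8, 87425827 to 87429194). Cpox, an enzyme of heme synthesis, fell from 9640 and 10931 to 2813 and 2697 (-1.90 ± 0.26, limma adjusted p = 5.3e-05). For each of these genes both Dox libraries were below both untreated ones. Tal1, an earlier factor of blood and endothelium, fell by less, from 4164 and 4608 to 1290 and 2354 (-1.33, limma adjusted p = 0.00202, under the fold threshold). Laptm5, a lysosomal protein of white cells, was the member that rose, from 321 and 527 to 1282 and 1853 (1.90 ± 0.35, limma adjusted p = 0.000679), while Spi1, a factor of myeloid cells, had a log2 fold change of -0.39 (limma adjusted p = 0.255). Of 26 endothelial genes 2 fell, Pecam1 and Tek, and both lost the call without Dox replicate 1 or untreated replicate 2. Kdr, the receptor for vascular endothelial growth factor, was at 6083 and 6843 against 6528 and 8583 (0.21).

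Keratins and endoderm genes were lower, with counts that moved when single libraries were left out. Of 30 surface epithelium and trophoblast genes 9 fell and none rose (17 lower and 1 higher at an unadjusted p under 0.05), and the median log2 fold change was -1.24, and the count was 3 without untreated replicate 1, 13 without untreated replicate 2 and 4 without Dox replicate 2. Krt8 and Krt18, the keratin pair of simple epithelia, were lower in both Dox libraries than in both untreated ones, Krt8 from 8759 and 8843 to 1988 and 2139 (-2.09 ± 0.30, limma adjusted p = 6.64e-05) and Krt18 from 15619 and 14648 to 3569 and 3708 (-2.06 ± 0.34, limma adjusted p = 0.000305; chromosome 15, 101858647 to 101862457). Cdh1, which encodes E-cadherin, was at 4559 and 1381 against 1729 and 1049 (-0.90, limma adjusted p = 0.302), and its groups overlapped. Of 29 endoderm and yolk sac genes 9 fell and none rose (15 lower and 3 higher at an unadjusted p under 0.05), and the count was 1 without untreated replicate 1 and 2 without Dox replicate 1. Apob, a lipoprotein of yolk sac and liver, was at 2240 and 394 in the untreated and at 55.8 and 139 in the Dox libraries (-3.40 ± 0.76, limma adjusted p = 0.0034), so the untreated clones themselves were more than 5-fold apart, and its adjusted p was 0.0808 without untreated replicate 1 and 0.0531 without Dox replicate 1. Pluripotency genes had a median log2 fold change of -1.52 over 27 genes, with 3 lower and none higher (13 lower and 1 higher at an unadjusted p under 0.05), and 0 were lower without untreated replicate 1, 1 without Dox replicate 2 and 13 with the replicate number as a block. Pou5f1 and Nanog, the core factors, were at -1.61 (limma adjusted p = 0.157, and 0.00511 with the block) and -1.79 (limma adjusted p = 0.129, and 0.0179 with the block), so both passed only with the block.

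Cell cycle genes had mostly small negative values, and none passed the threshold. Of 48 tested, 26 were lower and 2 higher at an unadjusted p under 0.05 in the limma fit, where all genes had 18.4% lower and 17.1% higher, and the median log2 fold change was -0.31. Mki67, which marks dividing cells, was at 23744 and 24157 without and at 16734 and 15818 with Dox (-0.56 ± 0.12, limma adjusted p = 0.00356). Cdk5r1, the activator of the neuronal kinase Cdk5, was the 1 of 22 CDK inhibitors and cycle exit genes that rose, from 95.7 and 120 to 554 and 654 (2.48), and 2 rose with the replicate number as a block. Of 28 genes of dissociation and sorting stress none passed in either direction (1 higher and 4 lower at an unadjusted p under 0.05), and their median was 0.15.

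Signalling genes moved one by one. Notum, a secreted enzyme that inactivates WNT ligands, rose from 136 and 107 to 1351 and 2102 (3.80 ± 0.41, limma adjusted p = 3.41e-06; chromosome 11, 120515102 to 120522489) and Nkd1, a feedback inhibitor of WNT signalling, from 1128 and 1771 to 4828 and 7483 (2.09 ± 0.26, limma adjusted p = 1.62e-05), the 2 that rose among the 38 tested genes of the WNT list, which does not hold every WNT gene (4 with the replicate number as a block). Dkk1, a secreted WNT antagonist, fell from 730 and 710 to 205 and 216 (-1.77 ± 0.31, limma adjusted p = 0.000492), 1 of 4 WNT genes that fell and 2 without untreated replicate 1 or without Dox replicate 2. Of 30 BMP and TGF-beta genes 3 rose and 3 fell, and Chrd, a BMP antagonist, rose from 123 and 122 to 485 and 373 (1.79 ± 0.26, limma adjusted p = 7.79e-05). Of 29 FGF genes 1 rose and none fell, with 2 higher without untreated replicate 1 and 1 lower without Dox replicate 2. Anterior Hox genes had a median log2 fold change of 1.24 over 14 genes, with Hoxb3 past the threshold, from 661 and 1187 to 2930 and 3579 (1.87 ± 0.30, limma adjusted p = 0.000234, and 1.45 without untreated replicate 1), and with 2 members higher with any single library left out and 3 with the replicate number as a block. In the fit without the block 8 of them were higher at an unadjusted p under 0.05. None of 19 posterior Hox genes passed (3 higher and 0 lower at an unadjusted p under 0.05, median 0.53), and 1 was higher with the replicate number as a block.

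The iGfi1 and iPou4f3 lines had the same parental cells, Dox and sorting, and show what a single other factor gave. The Dox effect in iAtoh1 was compared with the mean of theirs in the same limma fit. It was higher by the same threshold for 451 genes (2.68%) and lower for 394 (2.34%), and 308 of the 486 higher genes (63.4%) and 193 of the 424 lower genes (45.5%) were among these. Of the higher genes 57 also rose in iGfi1 and 56 in iPou4f3 (backgrounds 2.15% and 1.47%), and of the lower genes 74 and 17 also fell (backgrounds 2.67% and 0.606%). Called in the same direction in neither line were 386 of the higher (79.4%) and 337 of the lower genes (79.5%). These shares are smaller than over all tested genes, of which few were called in either line. Past the threshold in the opposite direction in at least 1 of the 2 lines were 53 of the called genes. Of the higher genes 14 (2.88%) fell in iGfi1 and 3 (0.617%) in iPou4f3, near the 2.67% and 0.606% of all tested genes. Of the lower genes 32 (7.55%) rose in iGfi1 and 5 (1.18%) in iPou4f3, against 2.15% and 1.47%.

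By this test the Notch, Hes, muscle and blood lists had many members apart from the other single factors, and the endoderm, epithelium and pluripotency lists had at most 1. Of 14 Hes, Hey, Helt and Id genes 6 exceeded the mean of the other lines and none was below. Against iPou4f3 alone 4 of them were higher and against iGfi1 alone 7, with none lower. Among neuronal lists, 4 of 11 bHLH, 6 of 35 cytoskeleton and 2 of 22 RNA-binding genes exceeded the mean, and 1 cytoskeleton gene was below. For Notch genes 7 of 17 exceeded the mean of the other lines and none was below, with Lfng 3.62 (limma adjusted p = 4.01e-05) and Mfng 3.03 (limma adjusted p = 7.64e-06) higher on the log2 scale. For Hes6 the difference was 3.13 (limma adjusted p = 3.22e-07), for Nhlh1 2.91 (limma adjusted p = 0.00357) and for Dll3 3.11 (limma adjusted p = 0.014). Each of the last 2 did not pass against one line taken alone, Nhlh1 at 1.39 against iPou4f3 (limma adjusted p = 0.278) and Dll3 at 1.80 against iGfi1 (limma adjusted p = 0.18), whereas Lfng, Mfng and Hes6 passed against each line. Muscle genes were higher for 7 of 30, with none lower, and in the other lines the list had negative medians, -0.75 in iGfi1 with 2 higher and 4 lower and -0.56 in iPou4f3. Against iGfi1 alone 12 were higher and 1 lower (backgrounds 4.71% and 3.55%), and against iPou4f3 alone 5 and 0 (backgrounds 1.94% and 1.82%). Blood genes were lower for 13 of 34 and higher for 1, with Hbb-bh1 at -3.34 (limma adjusted p = 0.000854), Gata1 at -3.23 and Hba-x at -3.55, while in iGfi1 itself 3 blood genes rose and 1 fell and in iPou4f3 3 fell. None of the 29 endoderm genes passed this test, and in iGfi1 8 of them fell. Against iGfi1 alone 4 endoderm genes were higher and none lower, and against iPou4f3 alone none was higher and 1 lower. The epithelium list had 1 gene higher and none lower, with 9 lower in iGfi1, and Krt18, at -1.25 (limma adjusted p = 0.0473), was short of the fold threshold. Against iPou4f3 alone Krt8 (-2.10, limma adjusted p = 0.00434) and Krt18 (-1.97, limma adjusted p = 0.0163) were lower, and against iGfi1 alone they were at -0.36 and -0.53. The epithelium list had 3 genes lower and none higher against iPou4f3 alone, and 2 higher and 1 lower against iGfi1 alone. None of the 27 pluripotency genes passed against the mean. Against iPou4f3 alone 1 of them was higher and none lower, and against iGfi1 alone none passed. Hair bundle genes were lower relative to the other lines for 8 of 42, and in those lines 5 rose with Gfi1 and 10 with Pou4f3. Most neuronal lists had more members higher against iGfi1 alone than against iPou4f3 alone. Higher and lower members against iPou4f3 alone were 1 and 0 (bHLH), 4 and 2 (SoxC and Myt), 1 and 1 (cytoskeleton) and 0 and 1 (RNA-binding). They were 1 and 5 (synaptic vesicle), 1 and 5 (transmitter) and 4 and 0 (axon guidance). Against iGfi1 alone the same lists had 5 and 0, 9 and 1, 10 and 2, 5 and 0, 4 and 1, 2 and 2, and 11 and 2. For the neuronal genes Unc5d, Lrrn1 and Elavl4 the mean joined unlike lines. Against iGfi1 alone their effects were higher, by 2.05 (limma adjusted p = 0.0154), 2.24 (0.015) and 1.96 (0.00361), and against iPou4f3 alone they were at -1.14 (0.274), -1.15 (0.314) and -1.45 (0.0585).

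**Figure D4:**
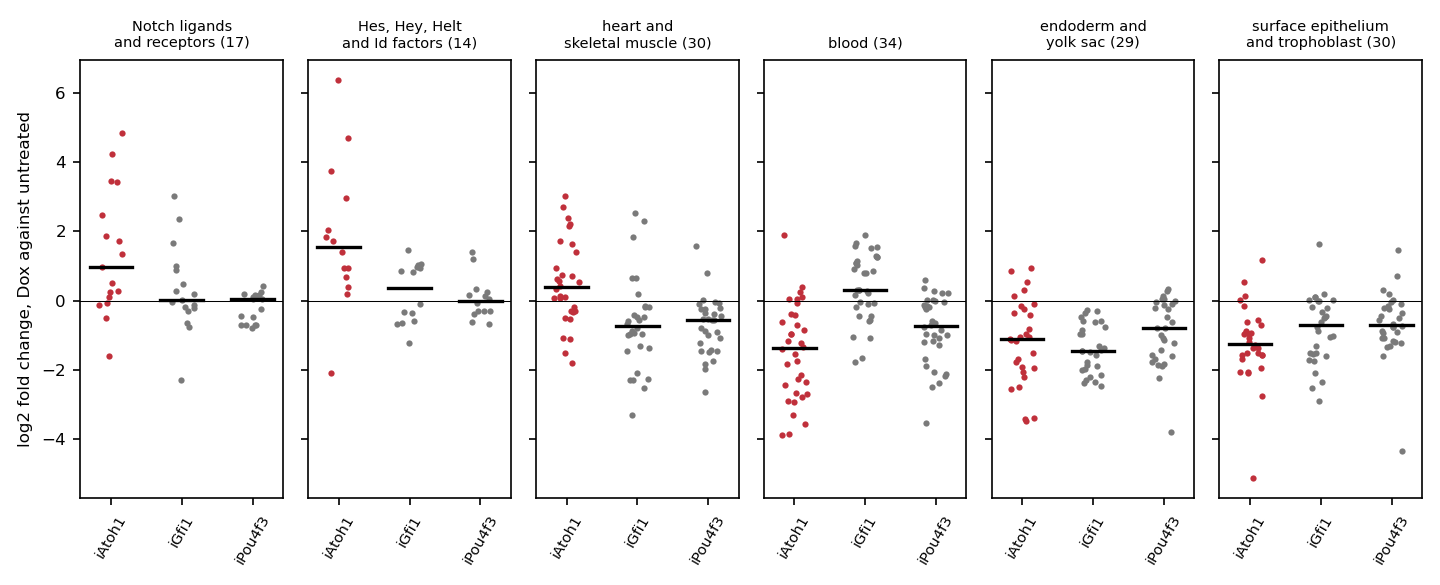
Log2 fold change with Dox of each tested member (points) of 6 gene lists in iAtoh1 (red), iGfi1 and iPou4f3 (grey), with the number of members in brackets and a black bar at the median. The iAtoh1 medians are highest for the Notch (0.97) and Hes (1.56) lists and lowest for blood (-1.36), whereas for endoderm the iGfi1 median (-1.47) lies below that of iAtoh1 (-1.10).

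The 3 lines in which Atoh1 is joined by other factors have their own untreated libraries and share none with iAtoh1. Of the 486 higher genes 294 (60.5%) also rose in iG+A, 255 (52.5%) in iP+A and 314 (64.6%) in iGPA, against 7.35%, 4.7% and 8.65% of all tested genes. In all 3 lines 162 rose (33.3%, against 1.85% of all tested genes), and in none of them 88. The sign was the same for 87.7%, 89.1% and 90.9% of the higher genes, where 49.2%, 46.5% and 50.5% of all genes were positive. Of the 424 lower genes 186 (43.9%), 156 (36.8%) and 193 (45.5%) also fell, against 4.95%, 2.58% and 5.31%, with 69 in all 3 lines (16.3%, against 0.766% of all tested genes) and 138 in none. The sign was the same for 84.4%, 93.6% and 83.3% of the lower genes.

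Levels of several of these genes in the other lines are given for libraries with and without the Atoh1 transgene. Sct had 2054 to 4100 normalized counts (median 3306) in the 6 Dox libraries of the other Atoh1 lines, 45.7 to 117 (median 90.2) in the 4 Dox libraries of iGfi1 and iPou4f3, and 25.6 to 152 (median 68.0) in the 12 untreated libraries of the other lines. Hes6 had 3197 to 5910 (median 4675), 366 to 623 (median 486) and 279 to 424 (median 357) in the same order. In iG+P with Dox, which has both other factors and no Atoh1 transgene, Sct had 181 and 183, and Hes6 had 1167 and 840, above its 369 and 393 without Dox. Gfra3 had 140 to 1407 (median 446), 36.7 to 62.7 (median 55.9) and 25.0 to 90.7 (median 52.4), and its Dox libraries in iAtoh1, at 3999 and 3919, were above all of these. Sct and Hes6 in iAtoh1 with Dox lay within or just above the range of the other Atoh1 lines. Dll3 was also raised in lines without the Atoh1 transgene. It had 1983 to 8832 (median 5267) in the other Atoh1 lines. The Dox libraries of iGfi1 and iPou4f3 reached up to 1233, and iG+P with Dox had 2825 and 1348, which overlaps the Atoh1 lines. Hbb-bh1 had 7303 to 26945 (median 15988) in the other Atoh1 lines with Dox, 123326 to 226674 (median 167744) in iGfi1 and iPou4f3 with Dox, and 45574 to 319799 (median 170495) in the other untreated libraries, which did not overlap the Atoh1 lines. In iG+P with Dox it had 11770 and 40645, against 45574 and 93797 without, so low Hbb-bh1 was also found without the Atoh1 transgene.

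Not every large change of iAtoh1 was shared. Tbata, at a log2 fold change of 5.36 in iAtoh1, had -0.11 in iG+A, 1.29 in iP+A and 0.20 in iGPA, and none of these passed the threshold. Wnt10a, a WNT ligand of skin and teeth, rose from 0.98 and 1.63 to 108 and 73.8 in iAtoh1 (5.31 ± 0.72) and had 8.78 in iG+A and 8.54 in iGPA but -0.16 in iP+A. The differences between these lines were not tested.

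**Figure D5:**
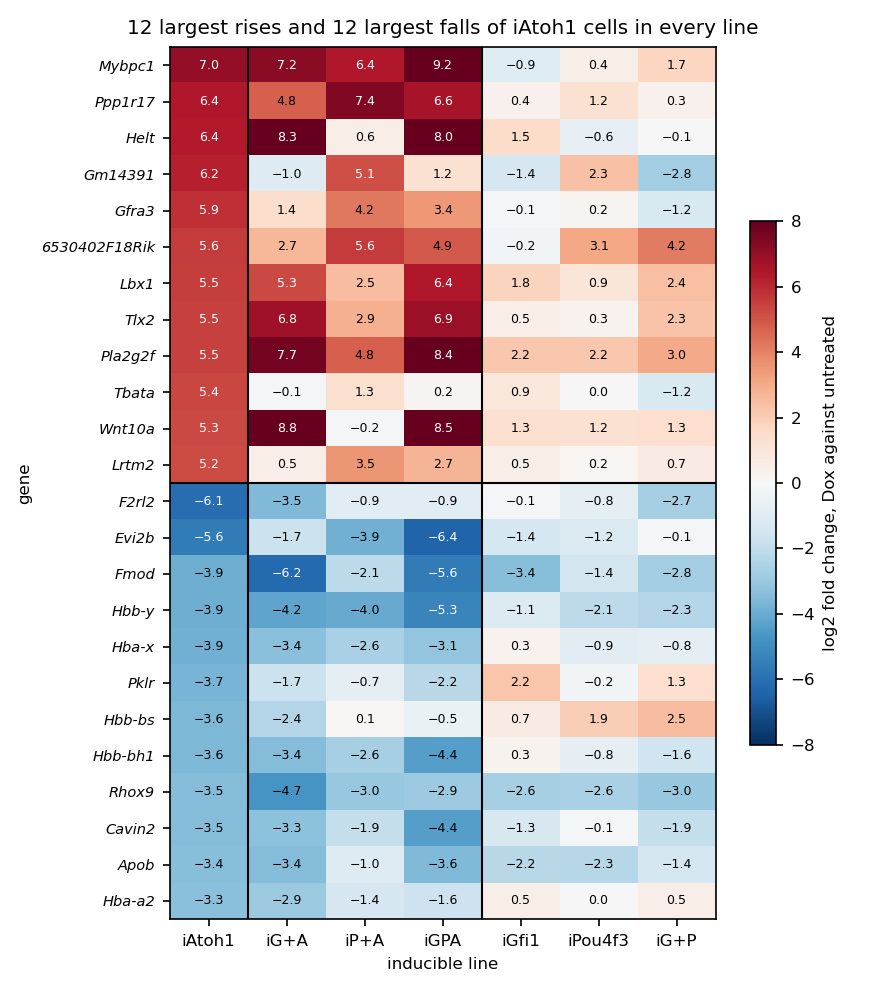
Log2 fold change with Dox, printed and coloured, of the 12 genes with the largest rises and the 12 with the largest falls in iAtoh1 (rows), in every inducible line (columns, with the lines where Atoh1 is joined by other factors between the vertical bars). Mybpc1 (6.42 to 9.19) and Ppp1r17 (4.80 to 7.4) are red in those lines, Tbata is red in iAtoh1 and near 0 in iG+A and iGPA, and Hbb-bh1 and Hba-x are blue in the Atoh1 lines and near 0 in iGfi1. Genes listed at 0 in a group, such as Gm14391 and F2rl2, have values set by the added count of 1.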

How the data were processed

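RNA was measured in 28 libraries of 7 inducible lines with and without Dox, and the 4 of iAtoh1 were described. Per the labels and the study's methods, the authors trimmed reads with cutadapt, pseudo-aligned them with kallisto to mouse transcripts of mm9, summed them to genes and normalized them with DESeq2; versions are not given in the sources used here. Each deposited value is the log2 of the authors' normalized count with 1 added, for 19421 genes, and no column holds a comparison. Raising 2 to a value and taking away 1 gave normalized counts. Whole reads could not be recovered, since 70.6% to 79.4% of the values not above 20 were whole multiples of the library's smallest step (tolerance 0.05), so no count test was run, although depth estimated from that step was 30.4 to 48.0 M reads.

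The log2 values were tested with limma 3.58.1 in R 4.3.3 (trended variance, 14 groups, 28 libraries, 14 residual degrees of freedom) on the 16837 genes that reached 10 normalized counts in 2 or more libraries, with Benjamini-Hochberg adjustment over all of them. The threshold was an adjusted p under 0.05 and a log2 fold change of 1.5. The test was also run on simulated counts with the same fixed spread for every gene. That spread was not taken from these libraries, so the run does not show how the test holds for them. Tables were handled with Python 3.11.15 and pandas 2.3.3. Genes were placed on NCBIM37 (mm9) by GENCODE M1. The members and the 37 gene lists (1008 genes), written from general knowledge, were chosen with earlier results of these data known. Genes were named by rule: Atoh1, the 12 largest rises and falls with a mean of at least 50 in the higher group and groups apart, the 8 largest gains and losses in counts, up to 4 members a list in each direction with up to 3 others, up to 5 genes opposite in iGfi1 or iPou4f3, and the cell type markers. The sources used here do not say whether equal replicate numbers with and without Dox mark one clone. Deviations of equal-numbered libraries correlated at 0.24 in iAtoh1 and at 0.10 to 0.25 over the 7 lines. The value with the replicate number as a block is therefore given for named genes whose call it changed and for some list counts that it moved. Other alternatives tried were other pseudocounts, filters, scalings, thresholds, controls and libraries left out.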

Additional observations from a re-analysis of the deposited data

Results flagged for a closer look

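Sets of genes were picked out because the Dox effect in iAtoh1 differed from the mean of the effects in iGfi1 and iPou4f3 by a test of the difference itself: 451 genes were higher and 394 lower in the limma fit. The 5 genes below were picked out because their difference was among the largest and the effect was past the threshold in opposite directions in iAtoh1 and another line with 1 factor.

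Asb2, a subunit of a ubiquitin ligase of muscle and blood cells, went from 5.06 and 6.75 to 130 and 204 in iAtoh1 (log2 fold change 4.58) and had -2.35 in iGfi1 (limma adjusted p = 0.0213). Pklr, the pyruvate kinase of red cells and liver, fell from 116 and 113 to 10.3 and 5.81 in iAtoh1 (-3.72) and rose in iGfi1 (2.24, limma adjusted p = 0.00173). Both Dox libraries of iAtoh1 were apart from both untreated ones for these genes, and each kept its call with any single library left out.

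Insyn2b, a gene of inhibitory synapses, was listed at 0 in one untreated library and at 14.7 in the other, against 51.2 and 41.6 with Dox (3.57), and had -4.52 in iGfi1 (limma adjusted p = 0.00112). Its effect in iAtoh1 was 1.59 without untreated replicate 1 (limma adjusted p = 0.165). Pcdhb11, a clustered protocadherin whose reads may be shared with its neighbours, was listed at 0 and at 2.45 against 19.2 and 17.0 (3.36), with -3.24 in iGfi1 (limma adjusted p = 0.00441), and its adjusted p in iAtoh1 was 0.0711 without untreated replicate 1. Tfap2b, a neural crest factor, was at 16.2 and 6.93 without and at 1.16 and 1.44 with Dox (-2.35), with 4.66 in iPou4f3 (limma adjusted p = 0.00044), and its adjusted p in iAtoh1 was 0.0946 without Dox replicate 1, 0.0727 without Dox replicate 2 and 0.176 without untreated replicate 1. The causes were not tested.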

How the results depend on the processing

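Of 140 alternative values of the counts of genes, 126 were within 1.5 times the reported count, and no count or named gene reversed. A log2 fold change of at least 1 gave 775 higher and 715 lower genes, 755 and 618 relative to iGfi1 and iPou4f3, 457, 392 and 485 higher genes shared with iG+A, iP+A and iGPA, and 344, 342 and 335 lower ones. Set against iGfi1 alone, 793 and 597 genes differed, against iPou4f3 alone 326 and 306, and with the Dox libraries compared directly 603 and 602; the cause was not tested. With single libraries left out, where the lone library of a group is assumed to vary like the other groups, counts were 437 to 491 higher, 323 to 422 lower, 364 to 444 and 319 to 399 relative to the other lines, 256 to 286, 224 to 258 and 274 to 311 shared higher, and 124 to 152, 108 to 133 and 128 to 170 shared lower genes. The value of 128, lower genes shared with iGPA without Dox replicate 1, was the only one of these beyond 1.5 times. The replicate number as a block gave 517 higher and 496 lower genes, 501 and 446 relative to the other lines, and 308, 264, 328, 225, 214 and 225 shared ones. The block changed the pluripotency list from 3 to 13 lower genes. Among other lists, it moved lower genes from 9 to 11 for endoderm and for epithelium, from 14 to 15 for blood, from 4 to 5 for fibroblast and from 3 to 4 for Merkel cell genes. Higher synaptic vesicle genes went from 3 to 4. Beside the calls given in the results, Snap25 passed upward with the block and Zfp42, Esrrb, Dppa5a, Postn, Foxa2, Epcam and Trh downward, and no other named gene changed its call. The 4 iAtoh1 libraries alone gave 405 and 287, and all 14 untreated libraries as control 572 and 458. Of 161 named genes past the threshold, 101 passed in every setting. Values under about 10 normalized counts rest on few reads.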
